A study of Mus musculus with 8 samples.

Results

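The 7 genes described here encode transcription factors that build the oocyte and subunits of the general transcription machinery that are enriched in the germline. *Figla*, *Sohlh1*, *Sohlh2*, *Lhx8* and *Nobox* are the oocyte transcription factors, and *Taf4b* and *Taf7l* are the germline TAFs (TBP-associated factors). They were chosen by gene symbol, and each was 1 of 25239 symbols counted in every library. Of the 7 genes, 5 passed the filter on low counts that left 14249 genes for the test, and *Lhx8* and *Nobox* did not.

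Whole ovaries of female C57BL/6 embryos were collected at E14.5, and each of the 8 RNA-Seq libraries was made from 2 pooled pairs of ovaries. The 4 control libraries were *Bmpr1a* fl/fl, with both alleles of the type I BMP receptor gene floxed and no Cre. The 4 *Bmpr1a*-cKO libraries were *Bmpr1a* fl/fl; *Oct4-Cre* Cre/WT, in which Cre is made under *Oct4* (*Pou5f1*) control in germ cells and is switched on by tamoxifen, so that the surrounding somatic cells keep the receptor. The mothers, all *Bmpr1a* fl/fl, received 1 mg of 4-hydroxytamoxifen and 0.5 mg of progesterone on 3 days (9.5 dpc, then 10.5 dpc and 11.5 dpc). Control embryos were littermates of the mutants, from 6 litters in all, but the labels do not tie a library to a litter, so a litter effect cannot be told apart from the spread between libraries. The question was what loss of BMP signalling within the germ cells does to their transcripts shortly after meiosis begins.

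Oocyte identity is set by a small network of transcription factors. FIGLA is a basic helix-loop-helix (bHLH) protein that is needed for primordial follicles to form and that binds the E-box, CANNTG, in the promoters of the zona pellucida genes. SOHLH1 and SOHLH2 are a related pair of bHLH proteins that partner each other, while LHX8 and NOBOX are homeodomain proteins that act later, as follicles form. TFIID is the complex that recognises core promoters; TAF4B is the gonad-enriched counterpart of its subunit TAF4, and TAF7L that of TAF7.

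A promoter of 300 bases (250 before to 50 after the start site) was taken from RefSeq (GRCm38.p6) for 6 of the 7 genes. The remaining gene was left out of the promoter search. Of these 6 promoters, those of the 4 genes whose differences are described most fully below are shown. Each is written 5′ to 3′ on the strand of the gene, and capitals mark CANNTG. The windows are chr6:86016941-86017240 (plus strand) for *Figla*, chr2:25847199-25847498 (minus) for *Sohlh1*, chr3:55181794-55182093 (plus) for *Sohlh2* and chrX:134476441-134476740 (minus) for *Taf7l*.
Figla: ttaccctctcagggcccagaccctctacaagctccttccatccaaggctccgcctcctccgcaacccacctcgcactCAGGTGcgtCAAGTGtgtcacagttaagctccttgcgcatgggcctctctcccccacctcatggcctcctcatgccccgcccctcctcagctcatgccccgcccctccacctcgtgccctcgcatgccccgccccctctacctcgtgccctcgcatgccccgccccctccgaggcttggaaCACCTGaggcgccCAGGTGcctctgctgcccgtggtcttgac
Sohlh1: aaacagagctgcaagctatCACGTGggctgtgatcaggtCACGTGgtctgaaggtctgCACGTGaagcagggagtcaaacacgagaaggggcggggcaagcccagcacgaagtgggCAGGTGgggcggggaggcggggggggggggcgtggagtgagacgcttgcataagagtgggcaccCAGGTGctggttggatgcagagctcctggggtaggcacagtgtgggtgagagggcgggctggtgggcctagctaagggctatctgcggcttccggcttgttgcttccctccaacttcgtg
Sohlh2: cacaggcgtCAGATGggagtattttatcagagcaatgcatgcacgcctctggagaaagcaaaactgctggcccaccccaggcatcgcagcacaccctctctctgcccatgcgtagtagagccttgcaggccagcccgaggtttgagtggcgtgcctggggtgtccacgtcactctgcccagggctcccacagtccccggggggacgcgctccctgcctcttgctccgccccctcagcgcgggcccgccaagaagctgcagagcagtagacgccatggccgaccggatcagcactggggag
Taf7l: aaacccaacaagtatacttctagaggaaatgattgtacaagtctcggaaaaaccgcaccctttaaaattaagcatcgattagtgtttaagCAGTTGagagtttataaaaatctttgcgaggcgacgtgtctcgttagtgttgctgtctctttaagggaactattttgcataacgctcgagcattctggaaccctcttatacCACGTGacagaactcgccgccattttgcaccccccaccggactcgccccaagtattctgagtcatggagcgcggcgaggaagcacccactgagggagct

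The *Figla* window held 4 matches to CANNTG, beginning at -173, -164, 9 and 22, counted from 1 at the start site. *Sohlh1* held 5 matches, of which 3, at -231, -211 and -192, read CACGTG, the palindromic form of the E-box. *Sohlh2* held 1 match, at -241, and *Taf7l* held 2, at -160 and -49, the latter of them CACGTG. The E-box is short and common: 72.3% of 32851 promoters of the same length held at least 1 CANNTG and 17.6% held at least 3, whereas CACGTG stood in 7.15% of promoters and at least 3 times in 29 of them (0.0883%). Every CACGTG also matches CANNTG and was counted under both motifs.

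The CNCCTCAG motif of STRA8, searched on both strands like the others, was matched at -91 and 12 in *Figla* and at -22 in *Sohlh2*. It was found in 7.94% of all promoters. GGCGCC, a GC-rich element of SMAD proteins that carry BMP signals, was matched once in *Figla*, at 16, where it overlaps a CNCCTCAG match read from the other strand, and it was found in 11.9% of all promoters. The *Nobox* window had 2 matches to CANNTG and 1 to GGCGCC. The *Lhx8* window had no match to any motif searched, which included the homeodomain cores TAATTA (5.29% of promoters) and TAATTG (8.00%); neither core was matched in the other 5 windows. The *Figla* start used by RefSeq lies inside the GENCODE gene, which begins farther upstream. A match is a description of the letters, and binding was not measured.

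Control libraries held 10622684 to 15365052 counts each and *Bmpr1a*-cKO libraries 8562961 to 14887102, and a floor of 3 counts corresponded to 0.189 to 0.358 CPM (counts scaled to library size after TMM). *Bmpr1a*, the deleted gene, ranged over 199 to 237 CPM in the control and 185 to 209 CPM in the *Bmpr1a*-cKO libraries, with a Log2FC (log2 fold change, *Bmpr1a*-cKO over control) of -0.16 (standard error 0.06, FDR = 0.0692 by edgeR), in ovaries where only the germ cells carry the deletion. The authors reported loss of receptor staining in germ cells of younger ovaries, and lower *Bmpr1a* by quantitative PCR at every stage they analysed. Germ cell markers were present in every library, with 9 of the 10 listed found in the files and a summed level of 703 to 937 CPM (control) and 740 to 1149 CPM (*Bmpr1a*-cKO). Of these 9 markers 3 were called higher (*Dazl*, *Dnd1* and *Tdrd5*) and 2 lower (*Mael* and *Tdrd9*), with a median Log2FC of 0.11. *Ddx4* (*Mvh*), an RNA helicase made only by germ cells at this stage, served as the reference within the germ cells, and its Log2FC was 0.11 (95% interval -0.17 to 0.40, FDR = 0.561 by edgeR). Without *Bmpr1a*-cKO library 1 the Log2FC of *Ddx4* was 0.25 (FDR = 0.0466 by edgeR). With any other library left out it was 0.02 to 0.20, with an FDR of at least 0.303 by edgeR. The Sertoli cell markers summed to at most 16.8 CPM (lowest 14.05) in any control and 12.9 CPM (lowest 11.3) in any *Bmpr1a*-cKO library, and the 4 adult globin genes were at 0 counts in every library.

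In *Bmpr1a*-cKO ovaries *Figla* was 4.10-fold lower, *Taf7l* was at 0.496 and *Taf4b* at 0.638 of the control level, whereas *Sohlh2* was 1.96-fold higher. *Sohlh1* did not pass the test, and *Lhx8* and *Nobox* were close to the detection floor in both genotypes. Thus, with the thresholds of an absolute Log2FC above 0.5 and an FDR below 0.05 (edgeR, quasi-likelihood test), 4 of the 5 tested genes were called, 3 lower and 1 higher, beside 10.2% of all genes tested in either direction, 4.06% lower and 6.11% higher. The libraries of the genotypes did not overlap for these 4 genes, which was also true of 27.9% of all genes tested. RNA was taken from whole ovaries, so fewer cells of a type and less RNA per cell cannot be told apart.

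**Figure D1:**
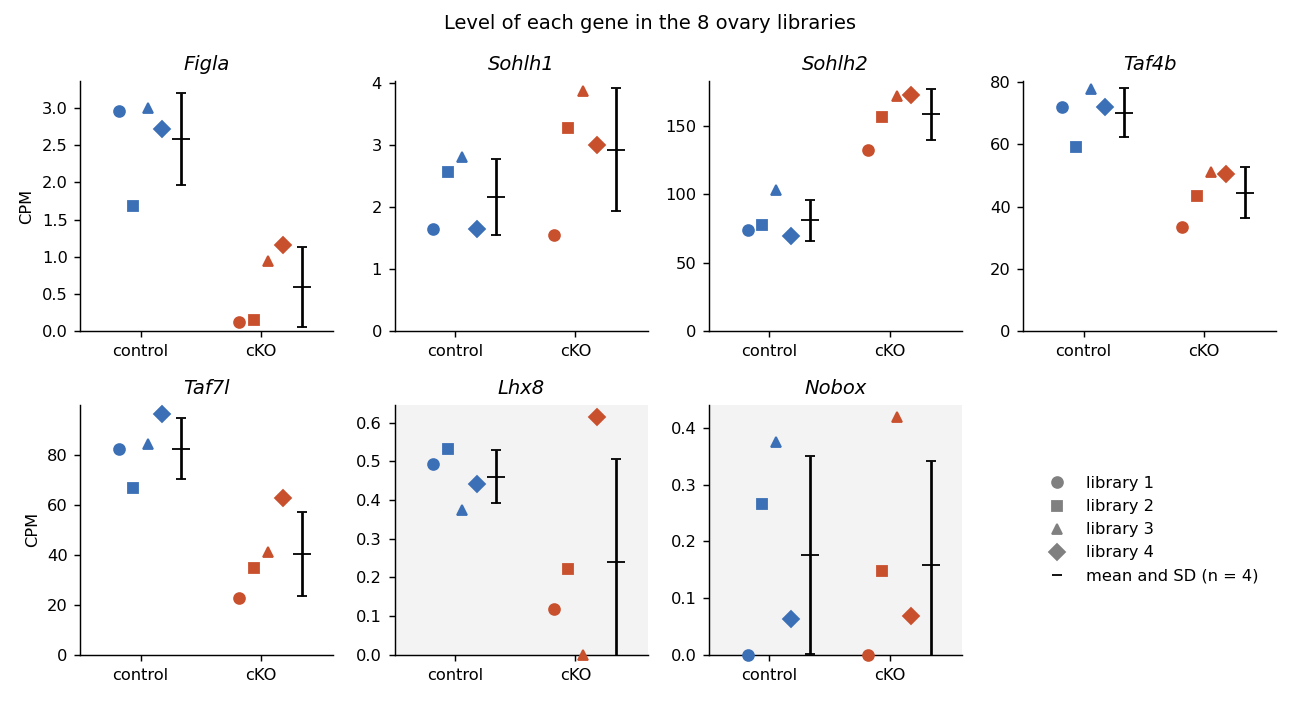
CPM (vertical axis, linear, from 0) of each gene in the 4 control (blue) and 4 *Bmpr1a*-cKO (orange) libraries, with one symbol per library and the mean and SD (n = 4) as a black bar; the panels of *Lhx8* and *Nobox*, which did not pass the filter, have a grey ground. All *Bmpr1a*-cKO points lie below control for *Figla*, *Taf4b* and *Taf7l* and above control for *Sohlh2*, while the points of *Sohlh1*, *Lhx8* and *Nobox* overlap.

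*Figla* lies on chromosome 6 from 86016171 to 86020996 (plus strand, mm10). It had 36, 19, 32 and 43 counts in control libraries 1 to 4 and 1, 2, 9 and 17 counts in *Bmpr1a*-cKO libraries 1 to 4. In CPM the control libraries were at 2.96, 1.68, 2.997 and 2.71, and the *Bmpr1a*-cKO libraries at 0.119, 0.149, 0.942 and 1.16. Every *Bmpr1a*-cKO library was therefore below the lowest control library, and *Bmpr1a*-cKO libraries 1 and 2 were at or under the floor of 3 counts. The mean fell from 2.59 ± 0.617 to 0.593 ± 0.537 CPM (mean ± SD of 4 libraries a genotype), a Log2FC of -2.04 (standard error 0.42, FDR = 0.00197 by edgeR), with a 95% interval of -2.93 to -1.14. The whole measurement rests on a total of 130 control and 29 *Bmpr1a*-cKO counts, and the Log2FC was -2.73 when *Bmpr1a*-cKO library 4 was left out and -1.66 when library 2 was, with an FDR of at most 0.00838 by edgeR.

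*Sohlh2* moved the other way. It lies on chromosome 3 from 55182028 to 55209957 (plus strand) and was the most abundant of the transcription factors. Control libraries 1 to 4 had 74.2, 77.9, 103 and 69.5 CPM, and *Bmpr1a*-cKO libraries 1 to 4 had 133, 157, 172 and 172 CPM. The lowest *Bmpr1a*-cKO library, library 1, was above control library 3, the highest of the control. The mean rose from 81.1 ± 14.99 to 158 ± 18.7 CPM (mean ± SD of 4 libraries a genotype), a Log2FC of 0.97 (standard error 0.11, FDR = 1.23e-05 by edgeR; 95% interval 0.74 to 1.21).

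*Sohlh1*, the partner of *Sohlh2*, lies on chromosome 2 from 25842995 to 25847248 (minus strand). It had 20, 29, 30 and 26 counts in control and 13, 44, 37 and 44 counts in *Bmpr1a*-cKO libraries 1 to 4. The levels were 1.64, 2.57, 2.81 and 1.64 CPM in control and 1.55, 3.27, 3.87 and 3.002 CPM in *Bmpr1a*-cKO libraries. *Bmpr1a*-cKO library 1, the shallowest, was below every control library, and the other 3 were above all of them. That library also had the lowest *Bmpr1a*-cKO level of 8 of the 9 germ cell markers, with a sum of 740 CPM against 991 to 1149 CPM in the other 3; *Ddx4* was at 106 CPM in it and at 159 to 179 CPM in them. The part of this in the *Sohlh1* result was not tested. The Log2FC of *Sohlh1* was 0.48 (standard error 0.26, FDR = 0.192 by edgeR), and its 95% interval of -0.08 to 1.05 spans folds from 0.945 to 2.06, so that these data give neither a difference nor its absence. Without *Bmpr1a*-cKO library 1 the Log2FC of *Sohlh1* was 0.65 with an FDR of 0.0418 by edgeR, which passes both thresholds.

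*Lhx8* (chromosome 3, 154306294 to 154330659, minus strand) had 6, 6, 4 and 7 counts in control and 1, 3, 0 and 9 counts in *Bmpr1a*-cKO libraries 1 to 4. The 4 control libraries were all above 3 counts, whereas 3 of the *Bmpr1a*-cKO libraries were at or under this floor and the fourth, library 4, was the highest of all 8. The mean was 0.460 ± 0.0679 CPM for control and 0.239 ± 0.266 CPM for *Bmpr1a*-cKO (SD, n = 4; exact permutation test, two-sided, p = 0.171). Summed over libraries there were 23 counts against 13, a ratio of 0.614 with a 95% interval of 0.285 to 1.26 that covers counting error only. The difference in mean CPM was -0.221; it was -0.346 without *Bmpr1a*-cKO library 4, when the remaining libraries no longer overlapped (exact permutation test, p = 0.0286, the smallest that 4 against 3 libraries can give), and -0.141 without *Bmpr1a*-cKO library 3 (exact permutation test, p = 0.343). With all 8 libraries a difference was not detectable at this depth.

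*Nobox* (chromosome 6, 43303674 to 43309554, minus strand) was sparser still, with 0, 3, 4 and 1 counts in control and 0, 2, 4 and 1 counts in *Bmpr1a*-cKO libraries. Of the 8 libraries 6 had at most 3 counts and 2 had none. The mean was 0.176 ± 0.174 CPM for control and 0.159 ± 0.184 CPM for *Bmpr1a*-cKO (SD, n = 4; exact permutation test, two-sided, p = 0.943). The ratio of 7 to 8 counts was 0.950, with a 95% interval for counting error of 0.293 to 2.997, so a difference of that size in either direction was not detectable.

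*Taf7l* lies on the X chromosome from 134460118 to 134476490 (minus strand). Control libraries 1 to 4 had 82.5, 66.6, 84.4 and 96.3 CPM, and *Bmpr1a*-cKO libraries 1 to 4 had 22.9, 34.6, 40.9 and 62.6 CPM. The genotypes did not overlap, though *Bmpr1a*-cKO library 4 came within 4 CPM of the lowest control library. The mean fell from 82.4 ± 12.2 to 40.3 ± 16.7 CPM (mean ± SD of 4 libraries a genotype), a Log2FC of -1.01 (standard error 0.20, FDR = 0.00142 by edgeR; 95% interval -1.44 to -0.59). *Bmpr1a*-cKO library 1 was the lowest and library 4 the highest of the *Bmpr1a*-cKO libraries for both *Taf7l* and *Figla*. The Log2FC of *Taf7l* was -0.83 without library 1 and -1.33 without library 4, and its FDR was at most 0.00818 by edgeR whichever library was left out.

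*Taf4b*, on chromosome 18, had 71.9, 59.1, 77.8 and 71.9 CPM in control libraries 1 to 4. *Bmpr1a*-cKO libraries 1 to 4 had 33.4, 43.4, 51.0 and 50.4 CPM, all of them below the lowest control library, library 2. The mean fell from 70.2 ± 7.91 to 44.5 ± 8.19 CPM (mean ± SD of 4 libraries a genotype), a Log2FC of -0.65 (standard error 0.11, FDR = 0.000547 by edgeR; 95% interval -0.89 to -0.41). A processed pseudogene on the same strand, AC133172.1, overlaps 1349 bases of the *Taf4b* gene, introns included. No 100-base window of the *Taf4b* transcripts was shared with it, and how reads from that stretch were counted is not given. None of the other 6 genes overlaps another gene, and no 100-base window of the transcripts of any of the 7 was shared with another gene.

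**Figure D2:**
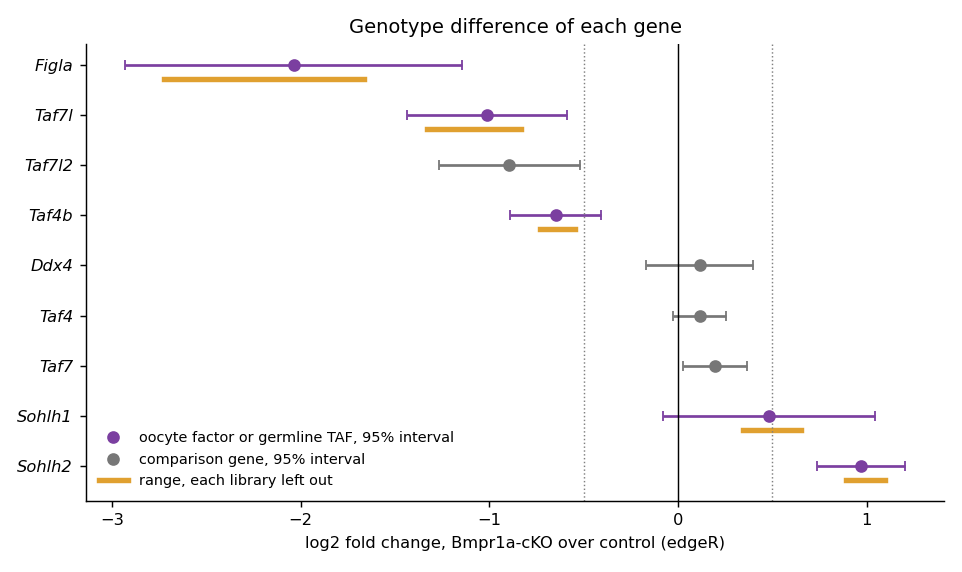
Log2FC (horizontal axis, *Bmpr1a*-cKO over control, edgeR) of the 5 tested genes (purple) and of 4 comparison genes (grey), with 95% intervals; the orange bars, drawn for the 5 genes only, give the range when each library was left out in turn, and the dotted lines mark 0.5 in either direction. *Figla*, *Taf7l* and *Taf4b* lie left of 0 with their whole intervals, *Sohlh2* lies right of 0, and the interval of *Sohlh1* includes 0.

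To set the levels of the genes beside each other, CPM were divided by exon length. On this scale (CPM per kb) *Taf7l* at 36.7 ± 5.44 and *Sohlh2* at 34.3 ± 6.34 led in control ovaries, and their ranges over the 4 libraries overlapped. *Taf4b* followed at 13.6 ± 1.54, then *Figla* at 3.10 ± 0.738 and *Sohlh1* at 1.68 ± 0.475, whose ranges also overlapped. *Lhx8* at 0.182 ± 0.0268 and *Nobox* at 0.0874 ± 0.0867 came last, again with overlapping ranges.

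The order differed in *Bmpr1a*-cKO ovaries. *Sohlh2* at 67.0 ± 7.92 CPM per kb stood above *Taf7l* at 17.9 ± 7.43, with no overlap of their ranges, and *Taf4b* at 8.65 ± 1.59 came next. *Sohlh1* at 2.27 ± 0.765 CPM per kb was now above *Figla* at 0.709 ± 0.642, although the ranges of 1.20 to 3.005 and 0.143 to 1.39 still touched. The low end of the order was again *Lhx8* and *Nobox*, at 0.0944 ± 0.105 and 0.0790 ± 0.0912 CPM per kb.

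**Figure D3:**
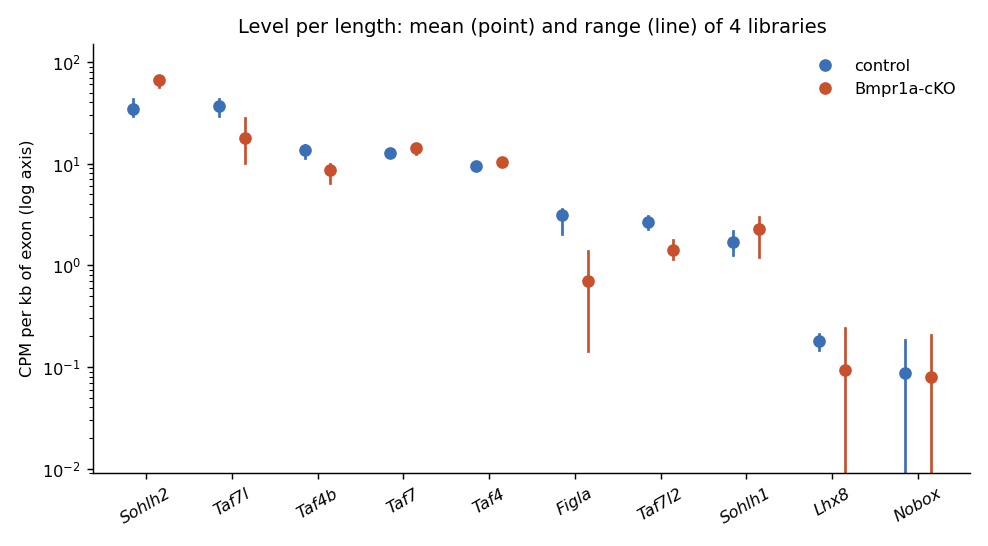
CPM per kb of exon (vertical log axis) of the 7 genes and of *Taf4*, *Taf7* and *Taf7l2* in control (blue) and *Bmpr1a*-cKO (orange) ovaries; points are means and lines run from the lowest to the highest of 4 libraries, drawn to the foot of the axis where the lowest library is at 0. *Taf7l* and *Sohlh2* share the top in control at 36.7 and 34.3, and *Sohlh2* alone leads in *Bmpr1a*-cKO at 67.0.

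A ratio formed within 1 library does not depend on how libraries are scaled. Relative to *Ddx4*, *Figla* fell by 2.62 on the log2 scale, from -5.78 ± 0.481 to -8.39 ± 1.31 (SD of 4 libraries). *Bmpr1a*-cKO libraries 1 and 2 held only 1 and 2 *Figla* counts. Their ratios of -9.21 and -9.81 depend on the 0.5 added to each count, and those of *Bmpr1a*-cKO libraries 3 and 4 were -7.32 and -7.23. *Taf7l* fell by 1.20 and *Taf4b* by 0.76 relative to *Ddx4*, while *Sohlh2* rose by 0.88. In each of these 4 ratios the libraries of the genotypes were separate, with p = 0.0286, the smallest that an exact permutation test of 4 against 4 libraries can give (two-sided), and 0.0357 after Benjamini-Hochberg adjustment over 5 ratios. The ratio of *Sohlh1* to *Ddx4* differed by 0.31, with overlapping libraries (exact permutation test, p = 0.171, also after adjustment). With the summed germ cell markers in place of *Ddx4* the differences were -2.82 for *Figla*, -1.41 for *Taf7l*, -0.97 for *Taf4b* and 0.68 for *Sohlh2*, with the same p from the exact permutation test. With a library left out, *Sohlh2* kept p = 0.0286 in each case, whereas p rose above 0.05 for *Figla* without control library 1 (-2.49, p = 0.0857), 3 (-2.62, p = 0.0571) or 4 (-2.51, p = 0.0571), for *Taf7l* without control library 4 (-1.05, p = 0.0571) and for *Taf4b* without any 1 of the *Bmpr1a*-cKO libraries (-0.80 to -0.70, p = 0.0571; exact permutation tests of 4 against 3 libraries). The remaining libraries of the genotypes were still separate in all of these fits. With groups of unequal size, another split of the libraries can give a larger difference in means.

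The germline TAFs were next set against the widely expressed subunits they resemble. These ratios are of whole-ovary RNA, and the ratio within germ cells was not measured. *Taf4* averaged 44.2 ± 1.64 CPM over control and 47.9 ± 2.24 CPM over *Bmpr1a*-cKO libraries (SD, n = 4), a Log2FC of 0.11 (95% interval -0.02 to 0.25, FDR = 0.207 by edgeR). The ratio of *Taf4b* to *Taf4* counts was 1.68, 1.35, 1.67 and 1.65 in control libraries 1 to 4 and 0.660, 0.934, 1.04 and 1.10 in *Bmpr1a*-cKO libraries 1 to 4. The 2 sets of ratios did not overlap, and the mean log2 ratio fell by 0.79 (exact permutation test, two-sided, p = 0.0286, adjusted 0.0429 over 3 ratios).

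*Taf7* averaged 41.7 ± 2.51 CPM over control and 47.5 ± 4.70 CPM over *Bmpr1a*-cKO libraries (SD, n = 4), a Log2FC of 0.20 (95% interval 0.03 to 0.36, FDR = 0.0769 by edgeR). The ratio of *Taf7l* to *Taf7* counts was 2.13, 1.53, 1.92 and 2.38 in control libraries and 0.563, 0.695, 0.850 and 1.22 in *Bmpr1a*-cKO libraries. *Taf7l* counts thus exceeded *Taf7* counts in every control library but only in library 4 of *Bmpr1a*-cKO, and the mean log2 ratio fell by 1.30 (exact permutation test, two-sided, p = 0.0286, adjusted 0.0429). Without any 1 of the control libraries it fell by 1.20 to 1.42, with p = 0.0571 by the exact permutation test and the genotypes still separate. *Taf7* and *Taf4* are overlapped on the opposite strand by other annotated genes, and whether the counting used strand is not given in the sources used here.

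*Taf7l2*, a further relative of *Taf7l* on chromosome 10 (116111664 to 116113917, minus strand), had 5.18, 5.76, 6.84 and 6.31 CPM in control libraries and 2.74, 2.60, 3.46 and 4.03 CPM in *Bmpr1a*-cKO libraries. All *Bmpr1a*-cKO libraries were below all control libraries, and the Log2FC was -0.89 (standard error 0.17, FDR = 0.00133 by edgeR). The whole of *Taf7l2* lies opposite *Ptprr*, so that reads from either gene could have been counted for the other.

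The partners *Sohlh2* and *Sohlh1* were compared in the same way. There were 45.1, 30.3, 36.7 and 42.3 *Sohlh2* counts for each *Sohlh1* count in control libraries 1 to 4 and 85.5, 47.9, 44.4 and 57.5 in *Bmpr1a*-cKO libraries 1 to 4. *Bmpr1a*-cKO library 3 fell just under control library 1, so the genotypes overlapped, and the log2 ratio differed by 0.58 (exact permutation test, two-sided, p = 0.0571, also after adjustment over 3 ratios). Without *Bmpr1a*-cKO library 3 the difference was 0.69 (exact permutation test, p = 0.0286), so this comparison turns on that library.

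**Figure D4:**
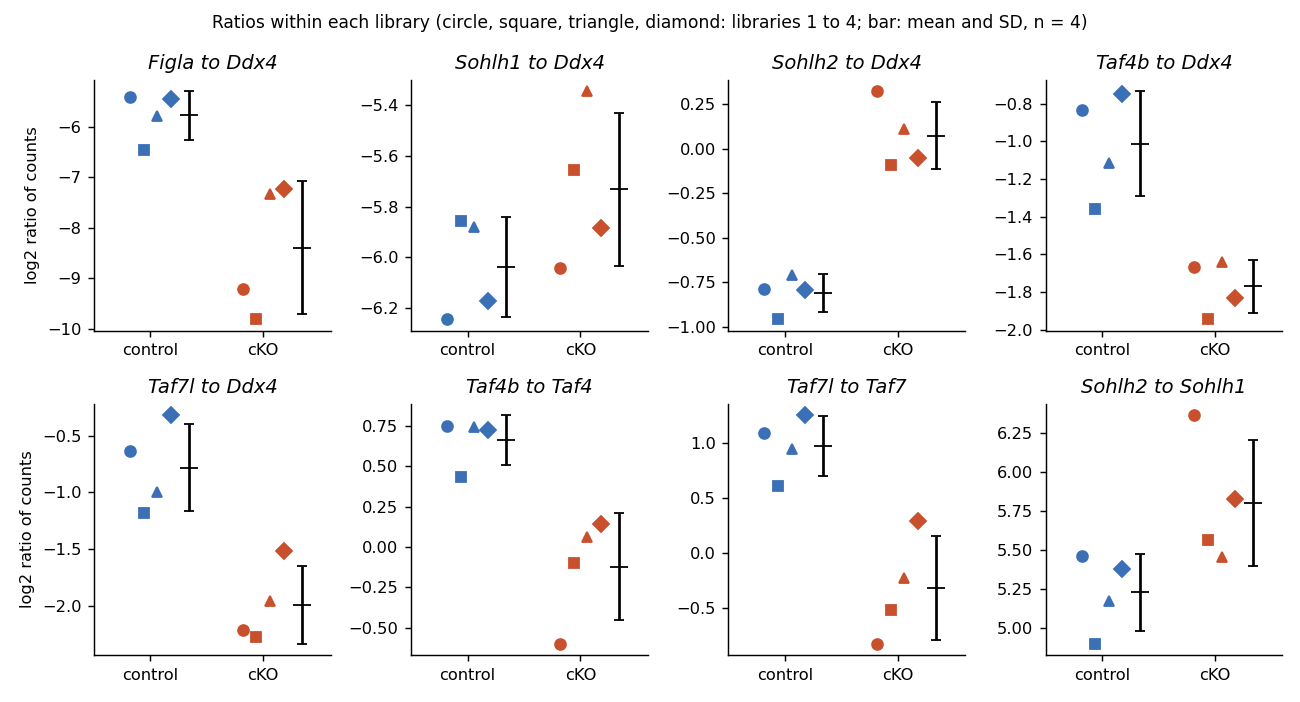
Log2 ratios of counts within each library (vertical axes, with 0.5 added to each count) for the 5 tested genes to *Ddx4* and for 3 pairs of related genes, in control (blue) and *Bmpr1a*-cKO (orange) libraries; black bars are the mean and SD (n = 4). The genotypes are separate in 6 of the 8 panels and overlap for *Sohlh1* to *Ddx4* and *Sohlh2* to *Sohlh1*.

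The rest of TFIID showed no call in whole-ovary RNA, in which a difference confined to the germ cells was not tested. Of its 15 core subunits in the files, *Taf4* and *Taf7* included, all were tested and 0 passed both thresholds of the edgeR test, as by limma-voom and DESeq2, and 7 had an unadjusted p below 0.05 by edgeR. Their Log2FC ran from -0.26 to 0.22 with a median of 0.07, beside a median of -0.00 over all genes tested. *Taf11* (-0.26, FDR = 0.0164) and *Taf6* (-0.22, FDR = 0.0273), both named after their values were seen, passed the FDR by edgeR but not the fold threshold; an FDR below 0.05 alone was reached by 29.8% of all genes tested. The Log2FC of *Taf4b*, -0.65, and of *Taf7l*, -1.01, were both outside the range of the core subunits.

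Among 6 other factors linked to the oocyte programme, 5 were tested and 0 were called by edgeR, limma-voom or DESeq2, with 2 at an unadjusted p below 0.05 by edgeR. *Tbpl2*, the TBP relative of the growing oocyte, was at 0 counts in every library. *Dynll1* (Log2FC 0.41, FDR = 0.000609 by edgeR) and *Tbpl1* (0.35, FDR = 0.00176), again named after their values were seen, were below the fold threshold.

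Genes known to work in the oocyte, most of them at later stages, were mostly sparse at E14.5. Of 16 listed oocyte genes 11 did not pass the filter, among them all 3 zona pellucida genes. *Zp2* and *Oosp1* had 0 counts in all libraries, *Zp1* had 3 control and 2 *Bmpr1a*-cKO counts in all, and *Zp3* had 8 control counts and 0 *Bmpr1a*-cKO counts. Of the 5 tested, *Gdf9*, *Padi6*, *Ooep* and *Tle6*, named after their values were seen, had a Log2FC of -0.26, -0.30, -0.08 and -0.15 and were not called, the first at 49 and 37 summed counts in the 2 genotypes.

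*Kit*, which encodes the receptor for KIT ligand on germ cells, was the 1 gene of the list that was called. It had 77.9, 87.1, 102 and 78.8 CPM in control libraries 1 to 4 and 135, 158, 151 and 157 CPM in *Bmpr1a*-cKO libraries 1 to 4. The lowest *Bmpr1a*-cKO library was above the highest control library, and the Log2FC was 0.80 (standard error 0.08, FDR = 5.48e-06 by edgeR).

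The genes whose profile over the 8 libraries lay nearest to each of the 5 tested genes were found by the root mean square distance of log2 CPM, each gene centred on its own mean. *Figla* was nearest to *Spdya* (0.302), *Dmrtc2* (0.305) and *Cited1* (0.333), and *Taf7l* to *Dmc1* (0.128), *H2bc1* (0.134) and *Calr3* (0.152). *Taf4b* was nearest to *Cbwd1* (0.0760), *Pde3b* (0.0772) and *2310061I04Rik* (0.0852), and *Sohlh2* to *Atp10a* (0.0377), *Lrp11* (0.0475) and *Abcg1* (0.0673). *Sohlh1* was nearest to *Rhox6* (0.151), *Cldn6* (0.173) and *Gm11413* (0.176). Among the 5 genes themselves *Taf4b* and *Taf7l* lay closest (0.327), followed by *Sohlh1* and *Sohlh2* (0.405), and *Figla* and *Sohlh2* lay farthest apart (1.70). These distances share the libraries and the genotype difference and carry no test.

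Somatic markers that moved with genotype are given beside these results. Of 8 pregranulosa cell markers 1 was called lower, *Foxl2*, a transcription factor of the granulosa lineage (control 118 ± 3.93 CPM, *Bmpr1a*-cKO 79.4 ± 7.30 CPM, SD, n = 4; Log2FC -0.57, FDR = 1.8e-05 by edgeR). A further 6 passed the FDR alone, the median Log2FC was -0.33, and the summed level was 1375 to 1650 CPM (control) and 1165 to 1387 CPM (*Bmpr1a*-cKO). Among the macrophage markers *Adgre1* was called higher (Log2FC 0.78, FDR = 0.00227 by edgeR; 1 of 4 tested, summed level 26.1 to 33.3 and 32.7 to 41.2 CPM), and among the steroidogenic markers *Hsd3b1* was called lower (Log2FC -0.63, FDR = 0.00561 by edgeR; 1 of 4, 42.2 to 48.4 and 25.0 to 43.6 CPM). Of 6 stroma, 5 Sertoli, 5 endothelium, 3 erythroid and 4 mesonephros markers 0 were called by edgeR, limma-voom or DESeq2, and 3 of these 23 had an unadjusted p below 0.05 by edgeR. The part of these shifts in the differences of the oocyte factors and TAFs was not tested.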

How the data were processed

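RNA-Seq was measured in 4 control and 4 *Bmpr1a*-cKO libraries of E14.5 ovaries. The authors trimmed reads with Trimmomatic 0.39, mapped them to mm10 with STAR 2.5.2 and deposited read counts per gene symbol, whole numbers without normalization; the annotation and strand setting of the counting are not given in the sources used here. A deposited table of normalised values was not used. Counts were tested in R 4.3.3 with edgeR 4.0.16 (filterByExpr, TMM, quasi-likelihood F test, two-sided, Benjamini-Hochberg adjustment over 14249 genes); limma 3.58.1 and DESeq2 1.42.0 were alternatives, and the procedure was tested on simulated data. CPM are from counts, log2 CPM profiles carry a prior count of 2, and ratios add 0.5 to each count and use exact permutation tests over 70 arrangements. Intervals and floors from counts cover counting error only. Nothing ties libraries to separate litters, so p-values measure the spread between these pools. Positions and exon lengths are from GENCODE vM21 (*Taf7l2* through the synonym *4933416C03Rik*). The genes, lists and alternatives were chosen with earlier results of these data known. Named are the 7 genes, *Taf4*, *Taf7* and *Taf7l2*, up to 5 called genes of each other list by size of change, and the 3 nearest profiles; *Bmpr1a*, *Ddx4* and the other genes of the lists that are given by name are outside this rule and were named after their values were seen. Alternatives were other tests, scalings and filters, the replicate number as a block, and each library left out.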

Additional observations from a re-analysis of the deposited data

Results flagged for a closer look

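In control ovaries the log2 ratio of *Taf4b* to *Taf4* set library 2 apart from the other 3: it was 0.43 in library 2 and 0.72 to 0.75 in the others. The gap between library 2 and its nearest neighbour was 0.933 of the whole range of the group, above the 95% critical value of Dixon's test for 4 samples. In all, 30 groups of values were screened, and chance flags about 1 in 20. Library 2 was also the lowest control library for *Figla* and *Taf7l*, and each of these was called lower by edgeR without it.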

How the results depend on the processing

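Across 10 other settings of the test, scaling, filter and block, and with each of the 8 libraries left out, *Figla*, *Taf4b* and *Taf7l* were called lower and *Sohlh2* higher by edgeR, limma or DESeq2, and no sign was reversed. Over the 10 settings the Log2FC ran from -2.48 to -2.04 for *Figla*, -1.17 to -1.01 for *Taf7l*, -0.76 to -0.65 for *Taf4b*, 0.89 to 0.98 for *Sohlh2* and 0.36 to 0.48 for *Sohlh1*. *Sohlh1* passed only without *Bmpr1a*-cKO library 1; its Log2FC ran from 0.34 to 0.65 with a library left out, and the number of the 7 genes called higher from 1 to 2. Over all genes, dropping the fold threshold gave 4242 calls (2461 higher, 1781 lower) in place of 1449. Scaling to the germ cell markers gave 570 higher and 673 lower calls in place of 871 and 578, a share of 45.9% higher in place of 60.1%, with the median of all genes at -0.10, and library size alone gave 50.8% higher; the direction of every called gene of the 7 was the same. The correlations of same-numbered libraries were 0.198, 0.161, 0.108 and -0.0871, above 0.1 in 3 of 4 pairs; the genotypes were littermates but no label says that a number marks a litter, so pairing by number was not established, and the replicate block gave 1457 calls and the same 4 of the 7 genes, and for the ratios to *Ddx4* its sign-flip test cannot go below an exact p of 0.125. Depth limits *Lhx8*, *Nobox* and, in 2 *Bmpr1a*-cKO libraries, *Figla*. With a library left out (exact tests of 4 against 3, 35 arrangements), the CPM difference of *Lhx8* ran from -0.346 (without *Bmpr1a*-cKO library 4, p = 0.0286) to -0.141, and that of *Nobox* from -0.104 to 0.0493, changing sign without control library 2 (0.0130) or 3 (0.0493) or *Bmpr1a*-cKO library 1 (0.0360) or 4 (0.0133). The log2 ratio differences ran from -3.00 to -2.14 for *Figla*, -1.36 to -1.05 for *Taf7l* and -0.87 to -0.67 for *Taf4b* to *Ddx4*, -1.50 to -1.13 for *Taf7l* to *Taf7* and 0.39 to 0.69 for *Sohlh2* to *Sohlh1*; p rose from 0.0286 to at most 0.0857 in 12 of these 40 fits and fell to 0.0286 in 1, the last pair without *Bmpr1a*-cKO library 3.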
